A study of Mus musculus with 9 samples.

Results

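The Nr4a genes encode a small family of orphan nuclear receptors, and Nr4a1, Nr4a2 and Nr4a3 were followed here in mouse CD4+ T cells that carried a control vector or a vector for active NFAT2. The members were chosen by gene symbol, and all 3 were among the 16500 genes listed by the authors. Each of them also passed the filter on low values, as 13090 genes did, by reaching 1 CPM in at least 3 libraries, where CPM stands for a gene's reads after every library is brought to one total. The members exceeded 1 CPM in all 9 libraries, so none entered only through the group in which it was high.

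The cells were primary CD4+ T cells of C57BL/6 mice, and a retrovirus delivered 1 of 3 constructs, with 3 libraries for each. Control cells received the CTRL vector. NFAT2_CA cells received a constitutively active form of NFAT2, the transcription factor encoded by Nfatc1, and NFAT2_CARIT cells received the same active form with the RIT changes, which weaken its joint binding with AP-1. AP-1 is the dimer of Fos and Jun proteins with which NFAT shares many composite sites on DNA. The sources used here do not give the promoter in the vectors, the purity of transduced cells, the state of activation, the time after transduction or the age and sex of the mice. Nor do they say whether replicates are separate animals or cultures, so every p-value measures only the spread among these libraries, which may be technical.

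Nr4a receptors bind DNA without a classical ligand, alone at the NBRE motif or in pairs at related sites, and their activity is set mainly by how much protein is made. In T cells they are immediate early genes: antigen receptor signalling switches them on rapidly through calcium, with MEF2, CREB and NFAT factors among the regulators described. Nr4a1 (Nur77) is widely used as a reporter of receptor signalling, and the family is known for roles in thymic deletion, regulatory T cells, tolerance and exhaustion.

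The members lie on different chromosomes, and the coordinates are those of the authors' files for mm10. Nr4a1 is on chromosome 15 (101254269 to 101274796, plus strand), Nr4a2 on chromosome 2 (57106830 to 57124004, minus strand) and Nr4a3 on chromosome 4 (48045153 to 48086448, plus strand). No other gene of the GENCODE M21 annotation overlaps any of them. The sequences just upstream of their starts are shown because these stretches share a feature, whose part in the Nr4a changes was not tested. They come from the RefSeq promoter table for GRCm38.p6, which held all 3 members, and run 5′ to 3′ on the gene's own strand. Capitals mark each TGACG on either strand, the core of the cAMP response element (CRE) bound by CREB and CREM proteins.
Nr4a1, chr15:101266596-101266845, plus strand: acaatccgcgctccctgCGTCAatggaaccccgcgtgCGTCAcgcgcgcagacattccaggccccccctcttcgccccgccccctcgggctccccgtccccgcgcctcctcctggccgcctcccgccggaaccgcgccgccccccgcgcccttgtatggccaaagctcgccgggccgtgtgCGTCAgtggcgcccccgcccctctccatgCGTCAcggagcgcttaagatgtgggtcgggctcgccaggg
Nr4a2, chr2:57124004-57124253, minus strand: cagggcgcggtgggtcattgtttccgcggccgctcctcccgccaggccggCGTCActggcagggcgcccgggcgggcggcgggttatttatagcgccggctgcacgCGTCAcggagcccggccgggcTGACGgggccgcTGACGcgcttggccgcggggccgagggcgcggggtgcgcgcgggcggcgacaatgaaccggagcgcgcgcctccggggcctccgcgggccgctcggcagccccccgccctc
Nr4a3, chr4:48045055-48045152, plus strand: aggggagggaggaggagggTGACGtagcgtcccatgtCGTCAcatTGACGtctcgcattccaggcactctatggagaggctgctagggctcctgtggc

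Each of the 3 windows of 250 bases held 4 matches to the CRE core. For Nr4a3 only the first 98 bases are printed, which hold 3 of its 4 matches, because GENCODE counts the other 152 as exon. The RefSeq start of Nr4a1 lies inside the span that the authors' file lists, which begins at an upstream exon. Of 32851 promoters in the table, 17.8% held at least 1 match and 0.137% held at least 4. The windows were rich in G and C, at 74.4%, 80.0% and 63.6% for Nr4a1, Nr4a2 and Nr4a3, against a median of 52.4% over all promoters. Among the 3037 promoters of at least 70% GC, 0.296% held at least 4 matches. The nearest match to the start was 40 bases upstream in Nr4a1, 111 in Nr4a2 and 147 in Nr4a3.

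Other motifs were searched on both strands of the same windows. The NFAT core GGAAA had 1 match in Nr4a2 and none in Nr4a1 or Nr4a3, while 55.6% of all promoters held one. A MEF2 site was found once, in Nr4a2, and in 2.92% of promoters. The full CRE TGACGTCA (1.55% of promoters), the AP-1 site TGANTCA (6.75%), the NBRE AAAGGTCA (1.34%) and the SRF box (1.47%) had no match in any member's window. The core is part of the full CRE, so those searches overlap. These matches describe letters in a short stretch, and no binding was measured.

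Estimated depth was 19947800 to 38189000 reads per library, from the spacing of the lowest values, and the read numbers below rest on it. The members rested on 101 to 6109 reads per library, the lowest being Nr4a2 in Control. Nfatc1 stood at 214 ± 22.1 CPM in Control, 358 ± 32.7 CPM in NFAT2_CA and 246 ± 6.48 CPM in NFAT2_CARIT (SD, n = 3 each). It was higher in NFAT2_CA than in NFAT2_CARIT, with a log2 fold change of -0.53 for the latter against the former (limma adjusted p = 9.22e-05). The small excess of NFAT2_CARIT over Control (0.21, limma adjusted p = 0.0229) was lost without Control replicate 3 (0.12, limma adjusted p = 0.102), without NFAT2_CARIT replicate 2 (0.21, 0.0548) and without NFAT2_CARIT replicate 3 (0.19, 0.0703). In the authors' deposited comparison this excess was 0.21 and was not called (DESeq2 adjusted p = 0.192). The files do not tell whether reads of the insert were assigned to Nfatc1, so these levels are not vector doses.

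All 3 Nr4a genes were far higher with either NFAT2 construct than in Control, and they ranked differently with the 2 constructs. Nr4a2 went to 50.8 times its Control level with NFAT2_CA and 18.0 times with NFAT2_CARIT. Nr4a1 rose 3.68-fold and 7.58-fold, and Nr4a3 rose 9.54-fold and 14.2-fold. In bulk RNA, more cells that express a gene and more RNA per cell cannot be told apart, which holds for every change below.

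Nr4a2 (Nurr1) is best known from dopamine neurons and is also expressed in activated and exhausted T cells. Its level was 4.29, 4.41 and 4.25 CPM in Control replicates 1, 2 and 3, then 227, 219 and 211 CPM with NFAT2_CA and 74.7, 77.8 and 81.1 CPM with NFAT2_CARIT. The 3 groups were far apart, with NFAT2_CA highest and Control lowest. In the order of mean levels over the 16500 listed genes, Nr4a2 moved from rank 10362 in Control to rank 953 with NFAT2_CA and 2865 with NFAT2_CARIT. With NFAT2_CA its log2 fold change on CPM + 1 was 5.37 ± 0.06 (SE, limma adjusted p = 8.74e-19), the 7th largest rise of 13090 genes tested. With NFAT2_CARIT it was 3.89 ± 0.06 (limma adjusted p = 3.29e-17), the 26th largest.

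Nr4a3 (NOR1) acts with Nr4a1 in thymic deletion and myeloid homeostasis, and is a second common reporter of receptor signalling. Its Control libraries held 11.05, 10.1 and 7.50 CPM. NFAT2_CA libraries held 87.8, 86.8 and 99.2 CPM, and NFAT2_CARIT libraries held 132, 138 and 138 CPM. Control replicate 3 was the lowest of its group, but the groups did not overlap, and here NFAT2_CARIT was highest. The log2 fold change was 3.14 ± 0.10 with NFAT2_CA (limma adjusted p = 6.31e-12) and 3.71 ± 0.10 with NFAT2_CARIT (limma adjusted p = 9.07e-13).

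Nr4a1 stood at 17.5, 16.3 and 13.6 CPM in Control. It reached 51.8, 58.1 and 64.7 CPM with NFAT2_CA and 115.7, 120.5 and 123 CPM with NFAT2_CARIT. The order of groups was that of Nr4a3, again without overlap. The log2 fold change was 1.82 ± 0.09 with NFAT2_CA (limma adjusted p = 4.56e-11) and 2.85 ± 0.09 with NFAT2_CARIT (limma adjusted p = 1.66e-13). These were the 361st and 98th largest rises of the genes tested.

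**Figure D1:**
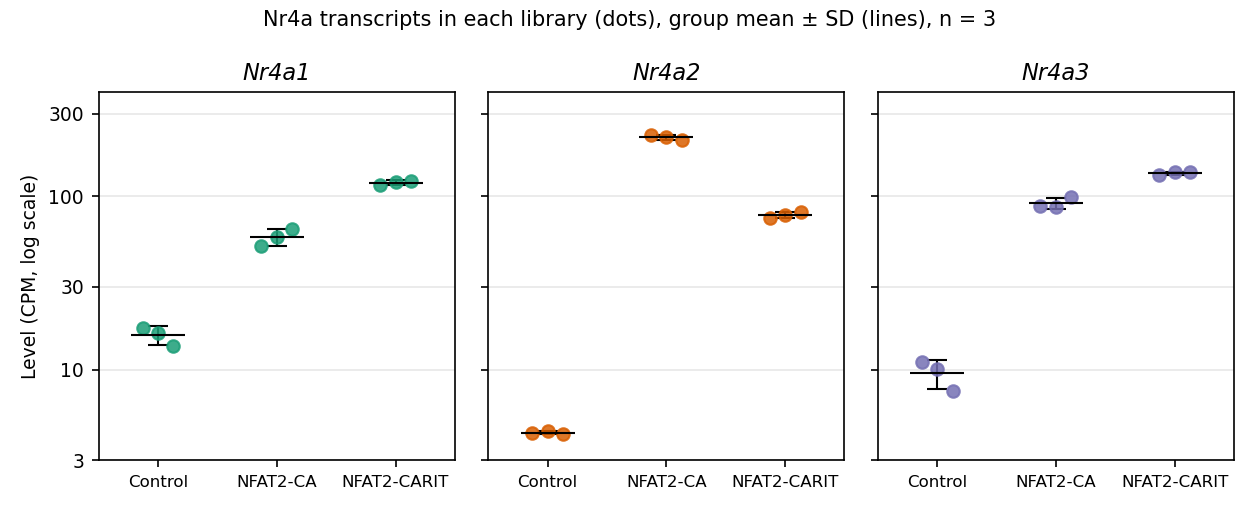
Level of each Nr4a gene in each of the 9 libraries (dots, CPM on a log axis) with the group mean ± SD of 3 libraries (lines). Nr4a2 is highest in NFAT2-CA (211 to 227 CPM), while Nr4a1 and Nr4a3 are highest in NFAT2-CARIT (115.7 to 123 and 132 to 138 CPM).

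All 3 members passed the test in the higher direction with NFAT2_CA, where 29.0% of the 13090 genes tested did. All 3 also passed it with NFAT2_CARIT, where 29.2% of genes were called higher. Both comparisons use the same Control libraries. The authors' deposited table gave log2 ratios of 5.67 for Nr4a2, 3.25 for Nr4a3 and 1.88 for Nr4a1 with NFAT2_CA, and 4.17, 3.83 and 2.92 with NFAT2_CARIT. Those ratios carry no added 1 CPM, and the gap to the fits above was widest for Nr4a2.

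The comparison of the constructs with each other asks which responses to active NFAT2 differ once its cooperation with AP-1 is weakened, and here the family split. Nr4a2 was lower with NFAT2_CARIT than with NFAT2_CA, whose mean level was 2.82 times as high. Nr4a1 was 2.06 times as high with NFAT2_CARIT as with NFAT2_CA, and Nr4a3 was 1.49 times as high.

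For Nr4a2, the log2 fold change of NFAT2_CARIT against NFAT2_CA was -1.48 ± 0.06 (limma adjusted p = 1.02e-10), the 46th largest fall. For Nr4a1 it was 1.03 ± 0.09 (limma adjusted p = 4.83e-07), the 69th largest rise. For Nr4a3 it was 0.57 ± 0.10 (limma adjusted p = 0.00114), the 301st largest rise. So 2 members were called higher, where 11.9% of genes were, and 1 was called lower, where 16.7% were. In the authors' deposited table the log2 ratios were -1.49, 1.04 and 0.57, with an adjusted p of 0.0478 for Nr4a3. The level of Nfatc1 also differed between the constructs, by the value given above, and its part in these differences was not tested.

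Because longer transcripts collect more reads, levels of different members were summed and set side by side per kilobase of the longest GENCODE transcript, which is 2553 bases for Nr4a1, 3568 for Nr4a2 and 5720 for Nr4a3. The summed Nr4a level was 9.07 ± 1.11 CPM per kb in Control (SD, n = 3), 100.2 ± 1.44 with NFAT2_CA and 92.5 ± 2.92 with NFAT2_CARIT. The constructs gave sums 11 and 10.2 times that of Control, with no overlap of libraries. The sums with NFAT2_CA (99.3 to 101.9) and with NFAT2_CARIT (89.3 to 95.1) lay close together, the former 1.08 times the latter. An exact two-sided permutation test gave p = 0.1 for each pair of groups, the smallest p that 3 libraries against 3 can give.

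The make-up of that sum also differed between groups. In Control, Nr4a1 made up 68.2 ± 0.318% of the level per kb, Nr4a3 18.3 ± 1.40% and Nr4a2 13.5 ± 1.59%. With NFAT2_CA the leading member was Nr4a2, at 64.1%, 61.9% and 58.1% in replicates 1, 2 and 3, while Nr4a1 held 22.7 ± 2.22%. With NFAT2_CARIT Nr4a1 led again, at 50.7%, 50.7% and 50.8%, and Nr4a2 held 23.6 ± 0.278%. The share of Nr4a3 was 15.9 ± 0.969% with NFAT2_CA and 25.7 ± 0.326% with NFAT2_CARIT. No share overlapped between groups (exact permutation p = 0.1, the smallest possible), except that of Nr4a3 in NFAT2_CA and Control (exact permutation p = 0.2). Without the division by length the share of Nr4a1 was 53.3%, 15.8% and 35.9% and that of Nr4a3 32.0%, 24.7% and 40.7% in Control, NFAT2_CA and NFAT2_CARIT. On that scale Nr4a3 led with NFAT2_CARIT, so which member leads there depends on the correction for length.

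**Figure D2:**
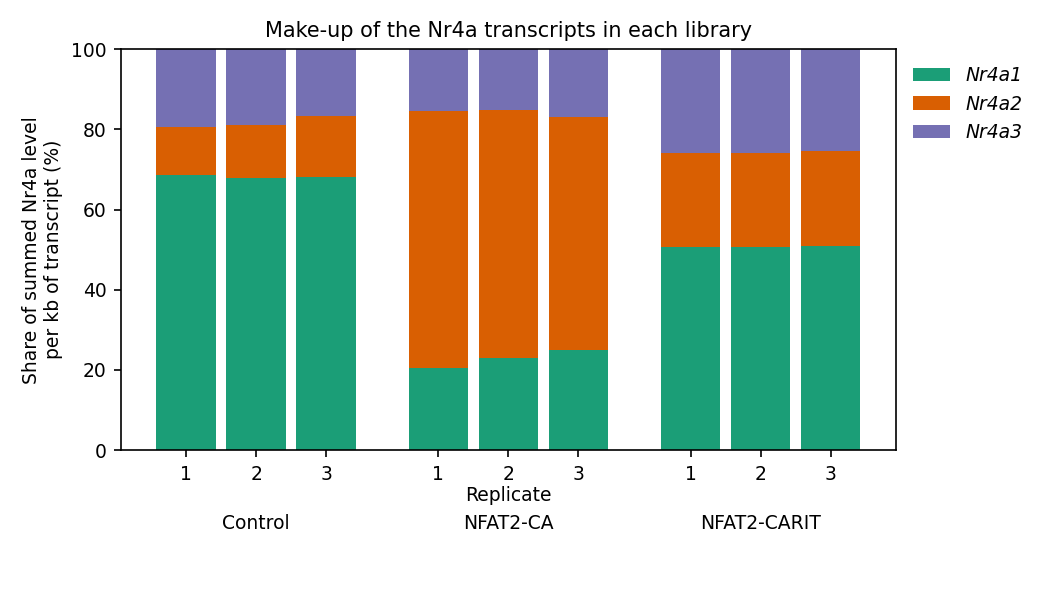
Share of each Nr4a gene in the summed Nr4a level per kb of transcript (percent, bars stacked to the total) in each of the 9 libraries, by group and replicate number. Nr4a1 leads in Control (68.0% to 68.6%) and NFAT2-CARIT (50.7% to 50.8%), and Nr4a2 leads in NFAT2-CA (58.1% to 64.1%).

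Ratios of members within a library do not depend on the scaling of that library apart from the added 1 CPM. They are not corrected for length, so a ratio of 2 members is read here only between groups and not as which member is higher. On the scale of log2(CPM + 1), the ratio of Nr4a2 to Nr4a1 was 1.90 ± 0.21 with NFAT2_CA and -0.62 ± 0.02 with NFAT2_CARIT, a difference of -2.52. Nr4a2 relative to Nr4a3 was 1.26 ± 0.15 with NFAT2_CA and -0.80 ± 0.03 with NFAT2_CARIT, a difference of -2.05. Nr4a3 relative to Nr4a1 moved least between the constructs, from 0.64 ± 0.09 to 0.18 ± 0.02, a difference of -0.46. None of the 3 ratios overlapped between the constructs (exact permutation p = 0.1, also after adjustment over 3 pairs, the smallest possible). In Control the same 3 ratios were -1.65 ± 0.16, -0.97 ± 0.25 and -0.68 ± 0.09.

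The genes whose pattern was most like each member were found by the root mean square difference, over the 9 libraries, of log2(CPM + 1) minus the Control mean, among 11192 tested genes. For Nr4a1 these were Slc17a6, a vesicular glutamate transporter gene (0.168), Zeb2, a zinc finger repressor found in effector T cells (0.183), and Cenpa, the centromeric histone H3 (0.184). Cenpa stood at 63.0 ± 5.96 CPM in Control, 221.5 ± 4.59 with NFAT2_CA and 421 ± 19.6 with NFAT2_CARIT. Slc17a6 and Zeb2 were low in Control, at 0.484 ± 0.0986 and 2.04 ± 0.734 CPM, so their likeness to Nr4a1 depends on the added 1 CPM.

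Nr4a2 had as its nearest genes Bmp2, a secreted ligand of the TGF-beta superfamily (0.193), Col27a1, a collagen gene (0.221), and Ahr, the aryl hydrocarbon receptor (0.348). Ahr went from 2.43 ± 0.446 CPM in Control to 94.9 ± 1.88 with NFAT2_CA and 44.3 ± 1.55 with NFAT2_CARIT. Bmp2 went from 0.042 ± 0.0727 CPM in Control, less than 3 reads in the mean, to 37.5 ± 1.18 and 17.3 ± 1.27. Col27a1 went from 0.224 ± 0.0241 CPM to 42.2 ± 1.44 and 21.2 ± 0.572. All 3 were highest with NFAT2_CA, like Nr4a2. Bmp2 and Col27a1 lay below the added 1 CPM in Control, which shrinks their changes on this scale, so their nearness to Nr4a2 depends on it.

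Nr4a3 was nearest to Ets2, an ETS family factor (0.127), Runx2, a Runt family factor (0.167), and Gab2, a signalling adaptor (0.179). Ets2 stood at 28.2 ± 2.14 CPM in Control, 260 ± 3.62 with NFAT2_CA and 347 ± 11.7 with NFAT2_CARIT. Runx2 stood at 21.9 ± 3.43, 241 ± 3.56 and 297 ± 15 CPM. By the same measure the members were less like each other than like these genes, at 0.912 between Nr4a1 and Nr4a3, 1.30 between Nr4a2 and Nr4a3 and 2.14 between Nr4a1 and Nr4a2. Ranked among all genes compared, Nr4a3 was 35th and Nr4a1 239th from Nr4a2, Nr4a1 was 158th and Nr4a2 319th from Nr4a3, and Nr4a3 was 527th and Nr4a2 6685th from Nr4a1. The genes were picked for their likeness over few libraries, so these values carry no test.

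The nearest listed genes on the chromosome moved in different directions. The one above Nr4a1 in coordinates is Atg101, an autophagy gene 9.48 kb away, at 13.3 ± 1.37 CPM in Control, 13.3 ± 1.21 with NFAT2_CA and 14.1 ± 0.973 with NFAT2_CARIT, and it passed no test. Below Nr4a1, 21.5 kb away, Grasp, a scaffold protein gene, fell from 3.796 ± 0.220 CPM to 0.344 ± 0.227 and 0.295 ± 0.0522 CPM (limma adjusted p = 4.92e-08 and 3.15e-08). Above Nr4a3, Stx17, a syntaxin gene of autophagosomes 38.5 kb away, fell from 35.1 ± 4.29 to 21.5 ± 0.494 and 21.2 ± 1.90 CPM. On the other side of Nr4a3, Sec61b lies 562 kb away, with log2 fold changes of 0.17 (limma adjusted p = 0.0824) and 0.31 (limma adjusted p = 0.00349). The nearest tested gene below Nr4a2 is the gene model Gm13502, 3410 kb away, which rose by 2.32 and 2.10 on the log2 scale.

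Other nuclear receptor genes moved in both directions and mostly by less than the Nr4a genes. Of 46 listed, 24 were in the file and 23 were tested. With NFAT2_CA 6 rose and 8 fell, beside 29.0% of all genes higher and 36.5% lower. With NFAT2_CARIT 7 rose and 8 fell, beside 29.2% higher and 41.1% lower. The median log2 fold change of the 23 was 0.09 and -0.11, against -0.06 and -0.09 over all genes tested.

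The vitamin D receptor gene Vdr had the largest rise of the 23 with NFAT2_CA, from 4.78 ± 0.470 CPM to 27.4 ± 1.18 CPM, and stood at 36.9 ± 1.19 CPM with NFAT2_CARIT (log2 fold changes 2.30 and 2.72). The rises of Nr4a2 and Nr4a3 exceeded those of all 23 with both constructs, while that of Nr4a1 with NFAT2_CA was below that of Vdr. Ppard, a fatty acid sensor, rose by 0.69 and 0.60. Falls with NFAT2_CA included the retinoic acid receptor gene Rara (-0.87) and Esrra (-0.84), an orphan receptor of energy metabolism. Rxra, a retinoid X receptor gene and a dimer partner of Nr4a1 and Nr4a2, went from 11.2 ± 1.55 CPM to 6.04 ± 0.836 and 4.03 ± 0.387 CPM.

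Between the constructs, 4 of the 23 receptors (17.4%) were higher with NFAT2_CARIT and 5 (21.7%) lower, beside 11.9% and 16.7% of all genes tested. The clock repressor gene Nr1d1 (0.93) and Vdr (0.42) were among the rises. The thyroid hormone receptor gene Thrb (-0.60) and Rxra (-0.48) led the falls. No other tested nuclear receptor gene reached the fall of Nr4a2, -1.48.

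Genes of the calcium, MEF2 and CREB routes known to drive Nr4a transcription did not move one way. The list holds both activators and inhibitors of these routes, so its counts do not give the direction of a route. Of 26 listed, 23 were tested, and 8 rose and 10 fell with NFAT2_CA, while 8 rose and 12 fell with NFAT2_CARIT. These are 34.8% higher and 43.5% lower, then 34.8% and 52.2%, not far from the 29.0% and 36.5%, then 29.2% and 41.1%, of all genes tested. Crem, the cAMP response element modulator, rose from 47.0 ± 4.18 CPM to 183 ± 5.85 and 208 ± 5.83 CPM (1.94 and 2.13). Hdac4 and Hdac5, histone deacetylases that hold MEF2 factors inactive, rose by 0.94 and 0.53 with NFAT2_CA and by 0.90 and 0.69 with NFAT2_CARIT. The falls were led by Nfatc2, the gene of the related factor NFAT1 (-1.23 and -1.43), the CREB coactivator gene Crtc3 (-0.96 and -1.05) and the calcineurin catalytic subunit gene Ppp3ca (-0.86 and -0.97). Rcan1, a calcineurin inhibitor and NFAT target, rose with NFAT2_CA from 10.1 ± 1.0 to 16.6 ± 1.62 CPM and fell with NFAT2_CARIT to 6.85 ± 0.372 CPM, a difference between the constructs of -1.16 (limma adjusted p = 5.25e-07).

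The Nr4a genes are usually induced together with other immediate early genes, and here that group was mixed. Of 40 listed genes, 38 were tested. With NFAT2_CA 19 rose and 12 fell, and with NFAT2_CARIT 21 rose and 9 fell. These are 50% and 55.3% higher, beside 29.0% and 29.2% of all genes, and the median log2 fold changes were 0.20 and 0.27 against -0.06 and -0.09. The falls were 31.6% and 23.7% of the list, a smaller share than the 36.5% and 41.1% of all genes tested. Rises of at least that of Nr4a3 were seen only for Atf3, at 3.17 with NFAT2_CA, and for none of the 38 with NFAT2_CARIT.

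Atf3, a stress factor of the CREB family, went from 5.47 ± 0.808 CPM to 57.1 ± 5.85 with NFAT2_CA and 34.5 ± 0.929 with NFAT2_CARIT. Irf4, a factor whose level follows receptor signal strength, went from 33.7 ± 3.00 to 211 ± 8.29 and 137 ± 2.87 CPM. Rgs2, a regulator of G protein signalling, went from 14.3 ± 3.06 to 93.5 ± 2.11 and 87.9 ± 3.22 CPM. Fosb, an AP-1 subunit gene, was almost absent in Control (0.179 ± 0.0677 CPM) and stood at 5.10 ± 1.00 and 2.31 ± 0.705 CPM. The largest falls were in Klf10, a TGF-beta-induced repressor (-2.59 and -2.52), Myc, a driver of growth (-1.52 and -1.76), and Dusp6, an ERK phosphatase (-1.26 and -1.18).

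Egr1, Egr2, Fos and Jun, classical immediate early genes of receptor stimulation, did not pass the test with NFAT2_CA. They and Egr3 were singled out after their values were seen. Egr1, a zinc finger factor induced through ERK, stood at 15.6 ± 6.11 CPM in Control, 12.0 ± 3.29 with NFAT2_CA and 9.19 ± 2.65 with NFAT2_CARIT and was not called (limma adjusted p = 0.403 and 0.0933). Egr2, a factor of T cell tolerance, was at 1.05 ± 0.221, 0.809 ± 0.261 and 0.721 ± 0.216 CPM and was not called either (0.361 and 0.20). Egr3 was lower, at 1.32 ± 0.144, 0.721 ± 0.150 and 0.323 ± 0.144 CPM, although its call with NFAT2_CA (limma adjusted p = 0.0274) was lost without NFAT2_CA replicate 3 (0.0785). Fos was at 2.73 ± 1.85 CPM in Control, 3.53 ± 1.02 with NFAT2_CA (limma adjusted p = 0.311) and 6.92 ± 0.513 with NFAT2_CARIT (limma adjusted p = 0.0056). Jun, the partner of Fos, varied widely in Control (121 ± 61.3 CPM) and was not called with either construct.

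**Figure D3:**
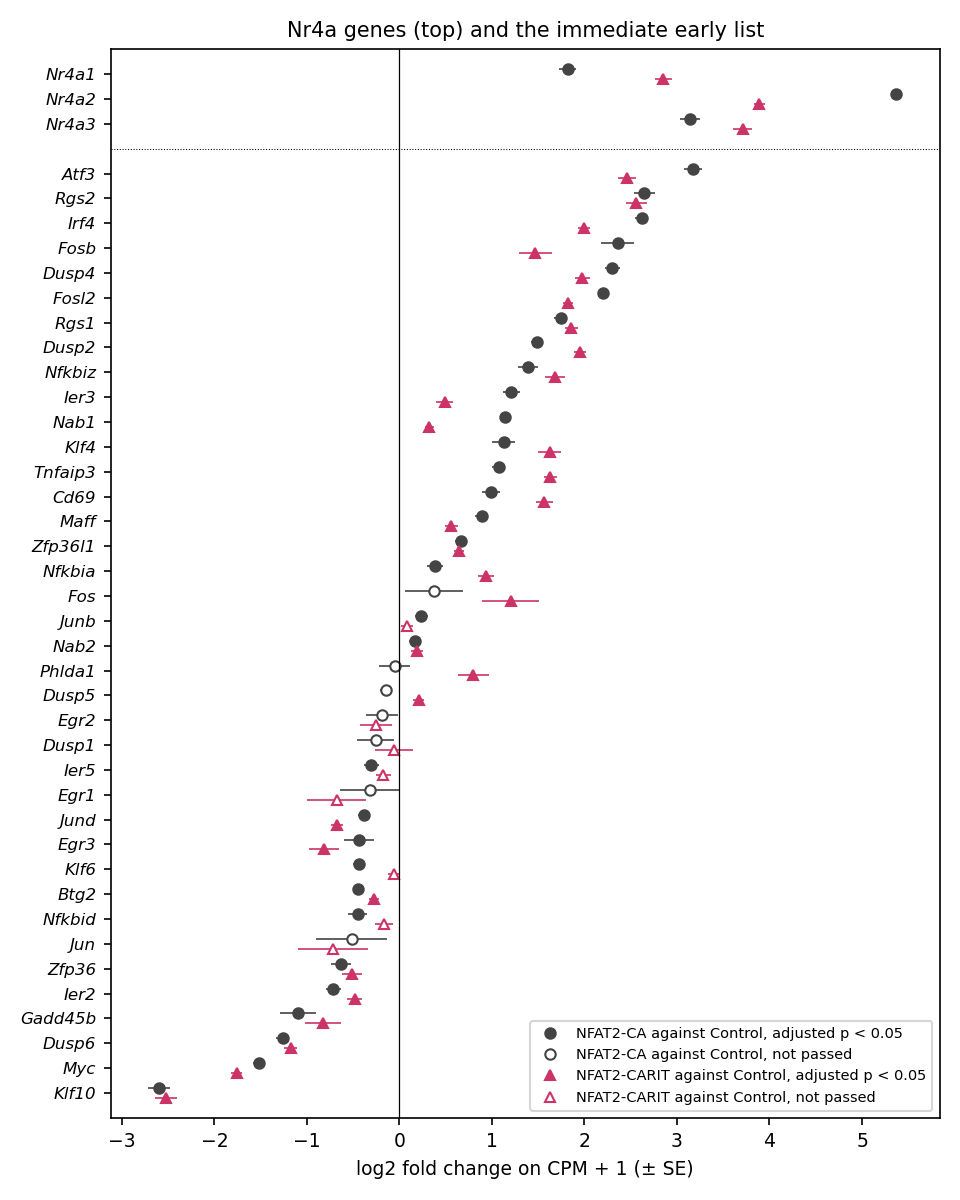
Log2 fold change on CPM + 1 (± SE) against Control for the Nr4a genes (top) and 38 tested immediate early genes, with circles for NFAT2-CA and triangles for NFAT2-CARIT, both against the same Control libraries, and filled marks where the adjusted p was under 0.05. The Nr4a genes lie at 1.82 to 5.37, while the list runs from 3.17 (Atf3) to -2.59 (Klf10) with NFAT2-CA.

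Between the constructs, 11 immediate early genes (28.9%) were higher with NFAT2_CARIT and 10 (26.3%) lower, beside 11.9% and 16.7% of all genes tested. Phlda1 (0.85), Cd69, an early activation marker (0.58), and Tnfaip3, a brake on NF-κB (0.56), were higher, as Nr4a1 and Nr4a3 were. Fosb (-0.89), Nab1, a corepressor of Egr factors (-0.82), and Ier3 (-0.72) were lower, as Nr4a2 was.

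Of 20 genes reported higher where Nr4a proteins are active in T cells, 18 were tested, and 13 rose with each construct while 2 fell with NFAT2_CA and 4 with NFAT2_CARIT. Of all genes tested, 29.0% rose and 36.5% fell with NFAT2_CA, and 29.2% and 41.1% with NFAT2_CARIT. The median log2 fold change of the list was 0.53 and 0.83, against -0.06 and -0.09 over all genes. The list was drawn up with results of these data known, so its direction is no independent evidence. The coinhibitory receptor gene Lag3 went from 60.8 ± 5.18 CPM to 1085 ± 36.8 and 1189 ± 42.6 CPM. Tigit, another coinhibitory receptor, went from 16.6 ± 2.01 to 119 ± 1.71 and 73.0 ± 3.61 CPM, and Tox, a factor of exhausted cells, from 14.03 ± 1.63 to 46.0 ± 0.770 and 30.5 ± 1.13 CPM. Foxp3, the regulatory T cell factor and a direct Nr4a target in the literature, did not follow them, at 5.94 ± 0.465, 7.27 ± 0.875 and 4.07 ± 0.523 CPM (log2 fold changes 0.25, not called, and -0.45). Tnfsf10, the death ligand TRAIL, fell (-0.67 and -1.21).

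Within that list the constructs differed in both directions, with 6 genes higher and 6 lower in NFAT2_CARIT (33.3% each way, beside 11.9% and 16.7% of all genes). Havcr2, the coinhibitory receptor TIM-3 (0.96), Ctla4 (0.79) and Ikzf2, the factor Helios (0.59), were higher with NFAT2_CARIT. Foxp3 (-0.70), Tigit (-0.70) and Tox (-0.58) were lower. The gene of PD-1, Pdcd1, singled out after its values were seen, was at 5.83 ± 1.48, 10.5 ± 0.821 and 8.06 ± 0.402 CPM, and it rose with NFAT2_CA (0.77, limma adjusted p = 0.000146). Its call with NFAT2_CARIT against Control (0.43, limma adjusted p = 0.0116) was lost without Control replicate 1 (0.24, limma adjusted p = 0.0777).

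Of 19 genes reported lower where Nr4a proteins are active, 14 were tested, with 5 higher and 8 lower in NFAT2_CA and 6 higher and 7 lower in NFAT2_CARIT. These are 35.7% and 57.1%, then 42.9% and 50%, beside 29.0% and 36.5%, then 29.2% and 41.1%, of all genes. The medians were -0.40 and -0.10, the latter near the -0.09 of all genes. Il4ra, an interleukin receptor chain gene, fell from 950 ± 54.5 to 407 ± 15.7 and 385 ± 3.64 CPM. Il21, a cytokine of helper cells, and Irf4 rose instead, Il21 from 1.16 ± 0.285 to 15.6 ± 1.92 and 19.2 ± 2.44 CPM. Irf4 and Myc belong to this list and to the immediate early list.

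Partners and coregulators of the Nr4a proteins moved in both directions. Of 18 tested, 4 rose and 8 fell with NFAT2_CA, and 3 rose and 9 fell with NFAT2_CARIT. These are 22.2% and 44.4%, then 16.7% and 50%, near the 29.0% and 36.5%, then 29.2% and 41.1%, of all genes. Besides Rxra, the apoptosis inhibitor gene Bcl2, whose protein binds Nr4a1 at mitochondria, had the largest fall with NFAT2_CARIT (-0.34 and -0.80). The kinase gene Stk11 rose by 0.41 and 0.45. Between the constructs 0 of the 18 were higher with NFAT2_CARIT and 3 (16.7%) lower, where 11.9% and 16.7% of all genes were.

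Markers of CD4+ T cells were present in every library, and some of them and of other markers moved with the groups. All 10 T cell markers were measured, with a summed level of 10870 to 11580 CPM in Control, 7665 to 8174 with NFAT2_CA and 7572 to 7604 with NFAT2_CARIT. Cd4 stood at 1571 ± 58.5, 1620 ± 57.7 and 1660 ± 45.7 CPM. The fall in the sum went with Thy1, at 4748 ± 235, 649 ± 14.8 and 657 ± 7.40 CPM, and hid moves in both directions. Of the 10 markers, 5 were called higher and 3 lower with NFAT2_CA, and 3 higher and 3 lower with NFAT2_CARIT. These are 50% and 30%, then 30% and 30%, beside 29.0% and 36.5%, then 29.2% and 41.1%, of all genes tested. Cd3e rose most with both constructs (log2 fold changes 1.18 and 0.75). Cd5 (-0.64 and -0.49) and Cd247 (-0.50 and -0.32) fell, as Thy1 did. The 2 CD8 genes summed to 12.5 to 13.7 CPM, 28.4 to 30.8 and 22.6 to 24.03. Of 8 B cell markers 4 were listed, summing to 412 to 423 CPM, 206 to 211 and 182 to 205, with Ighm at 415 ± 5.92, 208 ± 2.64 and 191 ± 10.5 CPM, and Ms4a1, Pax5 and Blnk were not among the listed genes. Of 14 myeloid and dendritic markers 7 were listed, at 103 to 117 CPM, 106 to 119 and 90.1 to 103.4, and Csf1r, Lyz2 and Adgre1 were not among them. Within that sum Fcgr3, an Fc receptor gene, fell from 28.0 ± 3.08 CPM to 4.61 ± 1.20 and 6.16 ± 0.555, and Itgam, an integrin gene, from 7.98 ± 1.24 to 0.701 ± 0.0851 and 1.34 ± 0.397. The MHC class II genes H2-Ab1 and H2-Eb1 rose with NFAT2_CA, from 63.5 ± 5.32 to 91.5 ± 4.38 and from 4.14 ± 0.615 to 10.6 ± 1.74 CPM. Of 5 NK, 8 erythroid and platelet and 7 mast cell and basophil markers 1 each was listed, with sums of at most 3.67, 0.528 and 3.81 CPM. The part of these shifts in the Nr4a changes was not tested.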

How the data were processed

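The expression values in CPM were deposited by the authors for 16500 genes, and each library's values sum to the same total once the constant 0.0001 that was added to them is subtracted. The deposited comparison table of the authors gives a p-value, a step-up FDR and a log2 ratio per gene. The authors made it with DESeq2 in Partek 10 on build mm10, per the submitters' processing notes. The sources used here do not give the aligner, quantifier, annotation or strand setting.

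Among low values (at most 1 CPM), 81.3% to 84.4% were whole reads within 0.1 read, too few to rebuild the counts. Estimated depths speak to counting error only. For the tests, log2(CPM + 1) was fitted with group means in limma 3.58.1 (R 4.3.3), using all 9 libraries. Moderation was by eBayes (trend and robust on), p-values were adjusted by Benjamini-Hochberg over 13090 genes, and a gene was called at an adjusted p under 0.05. The limma code was tested on data simulated for NFAT2_CA against Control, in which far fewer genes changed than were called here. Fold changes on this scale understate those of low genes. Single values were compared by exact permutation over libraries. The rest was done in Python 3.11.15 (SciPy 1.17.1, pandas 2.3.3, NumPy 2.4.6, matplotlib 3.10.9).

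The members, lists and tests were chosen with earlier results of these data known. Named were the members, Nfatc1, for each member the 3 genes of nearest pattern (gene models, immunoglobulin and T cell receptor segments left out) and the listed gene on either side. In each list, up to 4 rises and 3 falls per construct against Control and up to 3 each way between the constructs could be named, and markers above 1 CPM. Exceptions are marked in the text. Alternatives were pseudocounts of 0.5 and 5 CPM, no filter, a filter of 10 CPM, trimmed-mean, median-ratio and quantile scaling, array quality weights, a replicate block, only the 6 libraries of a comparison, each library left out, the authors' table and no length correction. Promoter sequences came from the RefSeq table, and protein sequences were not used here. Some genes that the rule names are left out here.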

Additional observations from a re-analysis of the deposited data

How the results depend on the processing

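All 9 changes of the members kept their direction and their call in all 180 alternative values. Nr4a2 ranged from 4.59 to 5.67 with NFAT2_CA against Control, from 3.15 to 4.17 with NFAT2_CARIT against Control, and from -1.51 to -1.44 between the constructs. Nr4a1 ranged from 1.60 to 1.90, from 2.59 to 2.94 and from 0.96 to 1.11, and Nr4a3 from 2.73 to 3.25, from 3.28 to 3.83 and from 0.54 to 0.63, with the largest adjusted p of any (0.0478) in the authors' deposited table.

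Counts of called genes were 8574, 9200 and 3745 by limma for NFAT2_CA against Control, NFAT2_CARIT against Control and NFAT2_CARIT against NFAT2_CA, but 3602, 4216 and 468 of 16500 genes in the authors' deposited table; the cause was not tested. The balance of higher and lower calls leaned on the scaling: 1553 higher and 2192 lower between the constructs became 1915 and 1826 with median-ratio and 1823 and 1763 with quantile scaling, and 3822 and 5378 for NFAT2_CARIT against Control became 4442 and 4628 with median-ratio scaling. Without the division by length, the shares of Nr4a1 became 53.3%, 15.8% and 35.9% and those of Nr4a3 32.0%, 24.7% and 40.7% in Control, NFAT2_CA and NFAT2_CARIT, by construction. Of 315 calls among listed and neighbouring genes, 41 were lost in at least 1 alternative fit, 18 of them under another scaling, and 0 changed sign. The largest change among the lost calls was 0.60 on the log2 scale.

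Same-numbered libraries of different groups did not all deviate together (correlations -0.0687 to 0.26), so the replicate numbers were not taken as pairs. With the replicate number as a block the calls were 8559, 9174 and 3544, and Nr4a3 between the constructs stood at 0.57 (limma adjusted p = 0.00283). The shares and ratios between members rest on 3 libraries per group, whose exact tests cannot go below p = 0.1.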
